A study of Homo sapiens with 28 samples.

Results

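The H3K27ac peak lists of SW872 cells were examined at 5 genes, PPARG, CEBPA, CEBPB, CEBPD and FABP4, the regulators and a marker of adipocyte differentiation. A peak was taken as belonging to a gene where its summit lay within 50 kb of a start site, and as a promoter peak where it lay within 2 kb. PPARG has 2 start sites, called P1 and P2 here, so 6 start sites were used on the GRCh37 (hg19) build: PPARG P1 at chr3:12329349, PPARG P2 at chr3:12392971, CEBPA at chr19:33793430, CEBPB at chr20:48807120, CEBPD at chr8:48650726 and FABP4 at chr8:82395473. In all, 243 of 654580 peaks qualified, and they fell into 61 of the 138849 regions that result when overlapping peaks of all lists are merged. Positions of the start sites were not checked against an annotation of that build. Distances below are in the direction of transcription, so that negative values lie upstream.

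SW872 is an established human liposarcoma cell line. The cells had been stably transduced with an empty vector, TAZ4SA, TAZ-CAMTA1, CAMTA1, YAP5SA, YAP-TFE3 or TFE3, and by the labels were at 90% confluence 48 h before collection, except CAMTA1 cells, which were collected below confluence. The methods of the study make no such exception for the H3K27ac cells. Epithelioid hemangioendothelioma, a vascular sarcoma, carries TAZ-CAMTA1 or YAP-TFE3 as its fusion protein. CAMTA1 and TFE3 by themselves are the whole proteins whose C-terminal parts the fusions hold, while TAZ4SA and YAP5SA are mutant, constitutively active TAZ and YAP. Each of the 7 labels has 2 H3K27ac libraries with a peak list each. The 14 input libraries have no list of their own, and expression in these cells was not analysed here.

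The names of the peaks inside the lists carry a construct as well, and it differed from the label in 14 of 14 lists. The lists labelled empty vector carry CAMTA1, TAZ4SA carries empty vector, TAZ-CAMTA1 carries TAZ4SA, and CAMTA1 carries TAZ-CAMTA1. The lists labelled YAP5SA carry TFE3, YAP-TFE3 carries YAP5SA, and TFE3 carries YAP-TFE3. Both libraries of a label carry the same name, so the pairs of libraries are the same under either naming, and only the construct assigned to a pair differs. Libraries are called by their labels below. The lists held 5721 (TFE3 replicate 1) to 102009 peaks (TAZ4SA replicate 1), and TAZ4SA replicate 2 held 98992. The other 11 lists held 21748 to 57505. Read totals were not used here, so the depth behind each list is unknown.

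H3K27ac, acetylation of lysine 27 of histone H3, marks active promoters and enhancers. In preadipocytes, CEBPB and CEBPD, bZIP transcription factors of the C/EBP family, are induced early after a differentiation stimulus and act on the promoters of PPARG and CEBPA. PPARG, the nuclear receptor that is the main regulator of adipogenesis, and CEBPA then sustain each other and switch on genes of the mature fat cell, among them FABP4, which encodes a fatty acid carrier. The 2 PPARG promoters give rise to the broadly expressed form and to the form that is largely limited to fat.

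Promoter sequences are shown for genes whose start sites bear a peak in many, few or none of the lists, since the windows differ in base composition. They are RefSeq promoters on the GRCh38.p14 build, 250 bases before and 50 from the start on. The RefSeq table at hand matched 3 of the 5 genes. Capitals mark TATAAA (the TATA box), CCAAT (the CCAAT box), GGAATG (the TEAD motif), TGANTCA (AP-1) or TTGCNNAA (a loose form of the C/EBP motif). Both strands were searched, and N is any base.
CEBPB, chr20:50190333-50190632, plus strand: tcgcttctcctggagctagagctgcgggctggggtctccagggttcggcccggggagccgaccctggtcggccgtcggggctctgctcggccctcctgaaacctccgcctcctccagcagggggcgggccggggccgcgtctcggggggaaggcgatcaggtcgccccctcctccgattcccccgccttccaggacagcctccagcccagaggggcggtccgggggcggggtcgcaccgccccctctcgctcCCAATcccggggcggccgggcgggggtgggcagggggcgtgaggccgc
CEBPA, chr19:33302485-33302784, minus strand: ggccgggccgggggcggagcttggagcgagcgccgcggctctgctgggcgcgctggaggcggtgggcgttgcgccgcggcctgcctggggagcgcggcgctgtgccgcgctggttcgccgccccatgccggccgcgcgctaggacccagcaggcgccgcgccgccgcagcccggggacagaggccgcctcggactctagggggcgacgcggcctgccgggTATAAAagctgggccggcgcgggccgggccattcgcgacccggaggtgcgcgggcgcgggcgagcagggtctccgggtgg
PPARG P1, chr3:12287118-12287417, plus strand: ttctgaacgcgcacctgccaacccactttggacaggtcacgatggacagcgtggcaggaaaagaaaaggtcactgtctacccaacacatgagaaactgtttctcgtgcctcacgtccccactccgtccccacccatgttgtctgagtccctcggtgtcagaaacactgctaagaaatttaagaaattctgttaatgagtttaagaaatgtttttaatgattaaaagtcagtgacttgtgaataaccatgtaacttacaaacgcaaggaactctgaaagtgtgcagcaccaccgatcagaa
PPARG P2, chr3:12351167-12351466, plus strand: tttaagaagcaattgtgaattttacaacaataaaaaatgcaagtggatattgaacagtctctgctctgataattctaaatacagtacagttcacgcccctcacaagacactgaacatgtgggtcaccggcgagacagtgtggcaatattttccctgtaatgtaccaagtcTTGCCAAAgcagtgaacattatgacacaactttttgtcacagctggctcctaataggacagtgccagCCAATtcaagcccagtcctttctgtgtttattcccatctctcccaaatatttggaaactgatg

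The 2 PPARG windows are the first and the last RefSeq start of the gene. These lie 64049 bp apart, against 63622 bp between P1 and P2 on the build of the lists, a difference of 427 bp. That is longer than a window of 300 bases, so at least 1 of the 2 starts differs from the site used for the peaks. The window shown for it may not hold that site, and the counts below are those of the windows. CpG dinucleotides numbered 31 in the CEBPB window and 50 in the CEBPA window, against a median of 14 over 34796 promoters of the same length. The P1 window held 10 and the P2 window 3. A count as high as that of CEBPB occurred in 20.7% of all promoters, as high as that of CEBPA in 1.28%, as high as that of P1 in 56.3% and as high as that of P2 in 81.7%. The TATAAA of the CEBPA window began 30 bp upstream of the start, and 11.6% of all promoters hold these letters. The C/EBP letters occurred in the P2 window only, beginning 80 bp upstream of the start, and are found in 10.46% of all promoters. CCAAT was found in the CEBPB window at 2 bp and in the P2 window 13 bp upstream, and 34.6% of all promoters hold it. Neither GGAATG, held by 14.04% of promoters, nor TGANTCA, held by 7.73%, was found in these windows. GGGCGG (the GC box, left in lower case), held by 44.9% of promoters, occurred 6 times in the CEBPB window, 2 times in the CEBPA window, 0 in the P1 window and 0 in the P2 window. CEBPB has a second RefSeq window further downstream, and the first is shown. The second held TATAAA beginning 29 bp upstream of its own start. It had 43 CpG dinucleotides, a count as high as that occurring in 4.99% of all promoters. A match is a run of letters and not a bound site.

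The sites fell into 3 kinds. CEBPB had a promoter peak in 14 of 14 lists, CEBPD in 13 and PPARG P1 in 11. CEBPA had one in 2 lists, both labelled TAZ4SA, and PPARG P2 and FABP4 had none in any list. CEBPB also held most of the peaks within 50 kb, 135, against 48 at P1, 31 at CEBPD, 22 at P2, 11 at CEBPA and 0 at FABP4, with peaks between P1 and P2 counted at each site that they reach.

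**Figure D1:**
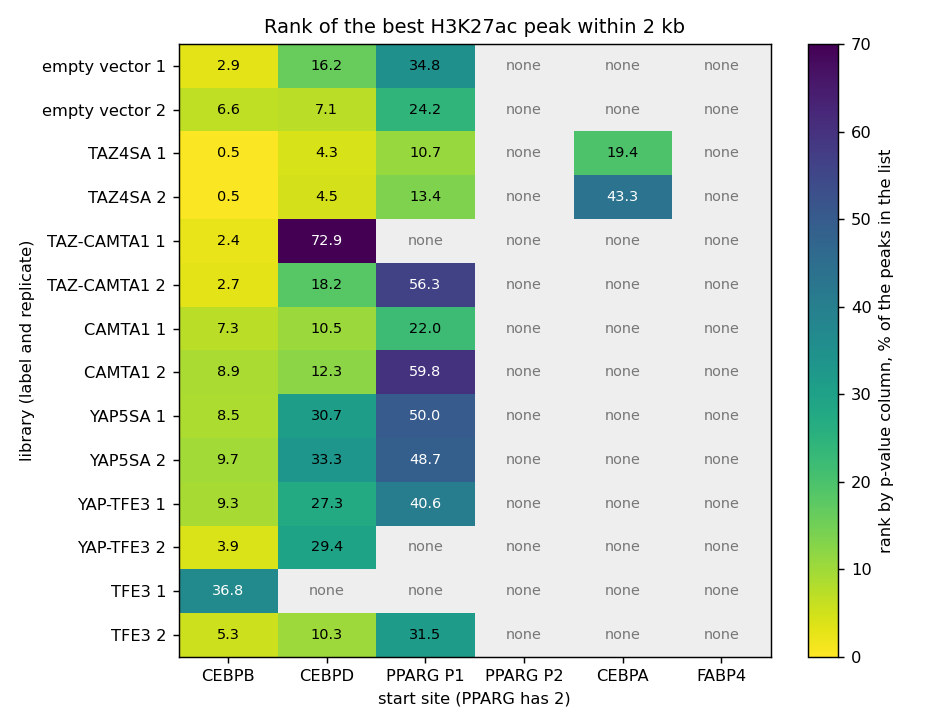
Presence and rank of the best promoter peak (summit within 2 kb) at the 6 start sites (columns) in the 14 lists (each line of the grid is a library). Numbers and colours give the rank by the −log10 p of the list as a percent of all its peaks, so that low values are strong peaks, and grey cells had no peak. CEBPB is filled in every list, from 0.492% to 36.8%, and the PPARG P2 and FABP4 columns are empty.

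CEBPB, the early C/EBP regulator, had its promoter peak among the strongest 10% of peaks in 13 of 14 lists. By −log10 p its best promoter peak ranked 507 and 487 in the lists labelled TAZ4SA, 530 and 1330 in TAZ-CAMTA1, 1228 and 3300 in empty vector, and 3521 and 2782 in CAMTA1. It ranked 2648 and 2931 in YAP5SA, 5338 and 1539 in YAP-TFE3, and 2103 and 2501 in TFE3. The ranks of TAZ4SA were the best of all, and those of the other labels overlapped at least 1 other label each. Replicates of empty vector, TAZ-CAMTA1 and YAP-TFE3 differed by more than 2-fold in rank. As a share of the list, the peak stood at 0.492% to 9.69% in 13 lists, with a median of 5.29%, and at 36.8% in the shortest list, TFE3 replicate 1. The rank of a peak depends on the length of its list. The peak was still present in 14 of 14 lists when each was cut to its 5721 best peaks.

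The fold enrichment at the CEBPB summit, a ratio of ChIP over local background, was 41.0 and 31.9 in the libraries labelled TAZ4SA, which stood above all others. It was 15.2 and 10.01 in empty vector, 12.2 and 15.9 in TAZ-CAMTA1, 10.2 and 8.16 in CAMTA1, and 10.6 and 8.04 in YAP5SA. It was 8.67 and 12.2 in YAP-TFE3 and 4.48 and 11.4 in TFE3. Fold enrichment of the TAZ4SA-labelled lists was high at the regions shared by all lists, however. Over the 4062 regions with a peak in every list, their median log2 fold lay 1.19 and 0.94 above the median of the lists, and that of TFE3 replicate 1 stood at −1.35 from it. Each list was therefore centred on its own median before the limma tests.

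The peak was also wide. Its width ran from 3043 to 8182 bp in 13 lists, with a median of 3931 bp, and was 987 bp in TFE3 replicate 1. Only 2.66% to 14.2% of the peaks in a list were wider. The summit lay 928 to 1574 bp downstream of the start site in 12 lists and 55 and 81 bp downstream in the libraries labelled YAP5SA. With a window of 1 kb in place of 2 kb, 4 lists kept the peak.

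Libraries of the same label were compared with libraries of different labels over each of the 135135 possible pairings of the 14 libraries. This was done for the CEBPB promoter rank and for covered length at 5 start sites, 6 tests in all, and p is unadjusted. The libraries of a label are biological duplicates by the methods of the study. At CEBPB, 77.7% of the variance of log10 rank lay between the pairs (exact one-sided permutation test, p = 0.0620). With log2 fold in place of rank, uncentred, the share was 82.5% (exact permutation p = 0.0395), and with centred log2 fold, added after the data had been seen, 60.1% (exact permutation p = 0.247). With rank as a percent of the list it was 50.8% (exact permutation p = 0.395), and without both TAZ4SA-labelled libraries, an alternative added after the data had been seen, the share for rank was 57.7% (exact permutation p = 0.280). A p under 0.05 was reached in 1 of these 5 tests, that on uncentred fold.

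After centring, the CEBPB promoter region (chr20:48805417-48814071) did not differ between the labels past the threshold. Its centred log2 fold was 0.52 and 0.42 in TAZ4SA, 0.75 and 0.11 in TAZ-CAMTA1, 0.27 and −0.49 in empty vector, and −0.27 and −0.27 in CAMTA1. It was −0.13 and −0.32 in YAP5SA, −0.63 and 0.16 in YAP-TFE3, and −0.12 and −0.22 in TFE3. Across the 4062 regions, 243 (5.98%) differed between labels at an adjusted p under 0.05 by the limma F test with Benjamini-Hochberg adjustment, and the CEBPB promoter had an adjusted p of 0.341. The call depended on the scale. The limma adjusted p was 0.0310 without centring and 0.0456 for log2 rank.

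**Figure D2:**
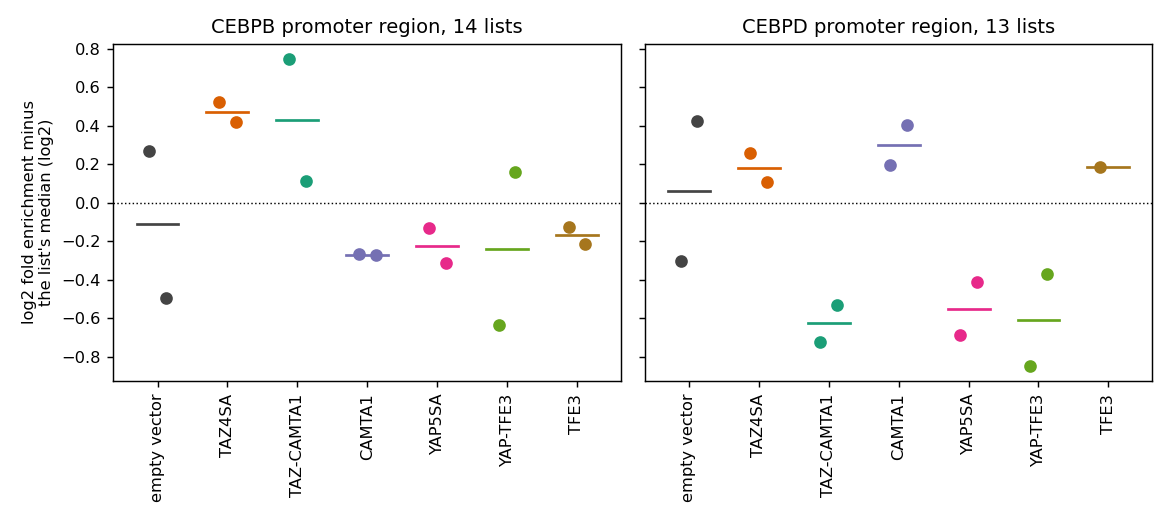
Centred log2 fold enrichment (y axis, log2, 0 is the median of the tested regions in a list) of the CEBPB promoter region in 14 lists and of the CEBPD promoter region in the 13 lists that have it, by label. Points are libraries and lines are means of a label. At CEBPB the points of TAZ-CAMTA1, empty vector and YAP-TFE3 spread more widely than most means differ, and at CEBPD the TAZ-CAMTA1, YAP5SA and YAP-TFE3 libraries lie below 0, at −0.37 or lower.

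The fusion labels were then set against the empty vector and against the activated form of the N-terminal partner at the CEBPB promoter. TAZ-CAMTA1 exceeded the empty vector by 0.54 on the log2 scale (SE 0.34, 95% interval −0.14 to 1.22, limma adjusted p = 0.757), and YAP-TFE3 minus empty vector was −0.13 (−0.81 to 0.56, limma adjusted p = 0.935). TAZ-CAMTA1 minus TAZ4SA was −0.04 (−0.73 to 0.64, limma adjusted p = 0.980), and YAP-TFE3 minus YAP5SA was −0.01 (−0.70 to 0.67, limma adjusted p = 0.990). The first of these ran from 0.16 without empty vector replicate 2 to 0.92 without empty vector replicate 1, and was 0.22 without TAZ-CAMTA1 replicate 1 and 0.86 without TAZ-CAMTA1 replicate 2. None of the 4 passed the threshold, although TAZ-CAMTA1 minus TAZ4SA did without centring, at −1.38 (limma adjusted p = 0.0415), and the intervals leave room for changes of about the size of the spread between replicates. Over all 4062 regions, limma called 0 (0%) for each fusion against the empty vector, with 304 for TAZ-CAMTA1 and 385 for YAP-TFE3 at an unadjusted p under 0.05. At an adjusted p under 0.05, limma called 7 and 38 with the construct in the peak names, and 2 and 20 for log2 rank. It called 127 (3.13%) for TAZ-CAMTA1 against TAZ4SA, but 3 without TAZ-CAMTA1 replicate 1, 5 without TAZ4SA replicate 1 and 16 with the peak names. It called 153 (3.77%) for YAP-TFE3 against YAP5SA, but 4 without YAP5SA replicate 1, 9 without YAP-TFE3 replicate 1 and 7 with the peak names. With the construct in the peak names, TAZ-CAMTA1 minus empty vector at CEBPB was −0.74 (limma adjusted p = 0.388), so the sign of that difference rests on the naming.

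Around CEBPB the peaks formed 5 broad regions seen in at least 12 lists, and each other start site had at most 1 region in 7 lists or more. The promoter region spanned −1.7 to 7.0 kb (14 lists). An upstream region at −31.4 to −21.2 kb (chr20:48775707-48785965) was present in 14 lists as well, with a median rank of 6359 and fold enrichments of 3.31 to 12.6. Regions at −46.7 to −35.0 kb (chr20:48760376-48772107) and at −55.5 to −47.9 kb (chr20:48751598-48759203) had a peak in 13 lists each, the second of them with a summit within 50 kb in 4 lists, and one at 29.2 to 37.5 kb (chr20:48836296-48844624) in 12. TFE3 replicate 1 lacked each of the 3 last named, and TAZ-CAMTA1 replicate 1 also lacked the downstream one. At the region from −46.7 to −35.0 kb the summit lay at −37.1 to −37.0 kb in 10 of the 11 lists outside the TAZ4SA label that have it, so the position was nearly the same from library to library, and in TAZ-CAMTA1 replicate 1 the strongest summit was at −44.9 kb. The upstream region at −31.4 to −21.2 kb did not pass the test between labels (limma adjusted p = 0.330). Its centred log2 fold was lowest in TAZ4SA, at −1.18 and −1.52, and ran from −1.01 to −0.17 in the other 12 libraries. In the order of the reference, the protein-coding genes next to CEBPB are PEDS1 and LOC124904927 on one side and PTPN1 and RIPOR3 on the other, and which gene each region acts on was not tested.

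**Figure D3:**
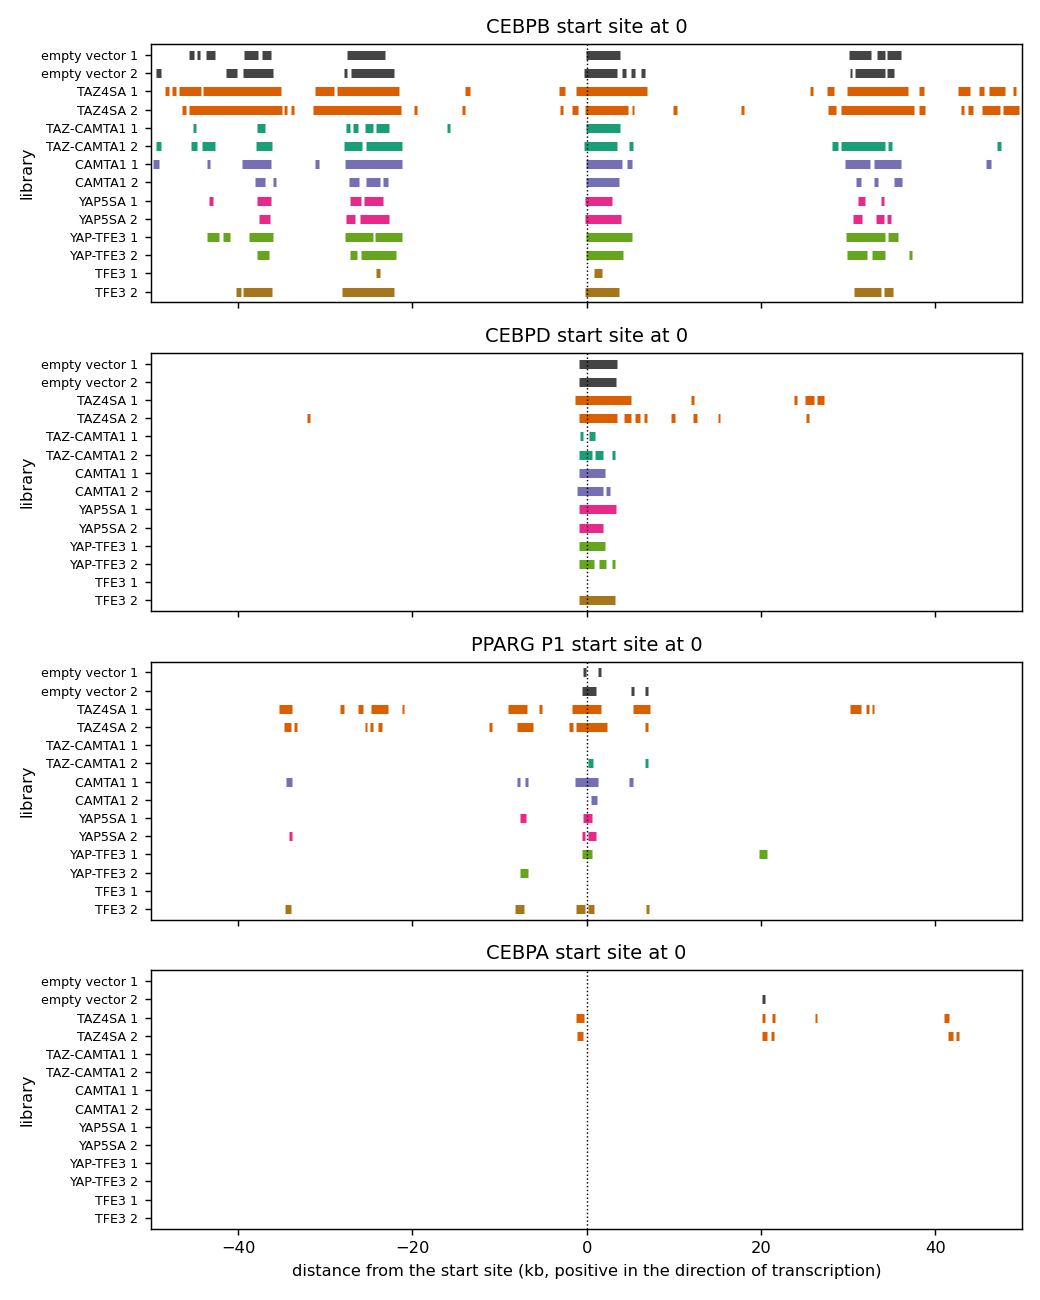
Peaks with a summit within 50 kb of the CEBPB, CEBPD, PPARG P1 and CEBPA start sites (x axis, distance in kb from the start site, positive in the direction of transcription), with 1 line per library. Bars are peaks, drawn to scale and coloured by label. CEBPB shows a column of peaks at the start site and columns near −37, −24 and 33 kb in most libraries, CEBPD shows only the promoter outside the TAZ4SA-labelled libraries, PPARG P1 shows the promoter and scattered short peaks, and CEBPA is empty except for TAZ4SA and 1 peak of empty vector replicate 2.

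Of the 61 merged regions at the 5 genes, 2 had a peak in all 14 lists, both at CEBPB, where 2.93% of all merged regions did. A peak in at least 11 lists was found for 8, against 11.6% of all merged regions. TAZ4SA-labelled libraries accounted for much of the rest. Peaks in both of them and in no other list made up 12 of the 61 regions (19.7%), against 9.54% of all merged regions, and 43 (70.5%) had peaks in TAZ4SA-labelled lists only, against 50% of all merged regions. These 2 lists are the longest, and how far list length alone gives this was not tested.

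CEBPB had a large share of its surroundings under peaks. Peaks covered 45.8 and 46.1 kb of the 100 kb around the start site in TAZ4SA, 17.7 and 20.1 kb in empty vector, 8.997 and 21.8 kb in TAZ-CAMTA1, and 22.6 and 10.6 kb in CAMTA1. They covered 9.64 and 12.2 kb in YAP5SA, 22.3 and 14.4 kb in YAP-TFE3, and 1.46 and 18.3 kb in TFE3. Among 30339 windows of 100 kb across chromosomes 1 to 22 and X, 1.26% to 3.07% were covered as much or more in the same list, with a median of 1.74% over the 14 lists. These windows tile the chromosomes, and only 12.1% (TFE3 replicate 1) to 47.5% (TAZ4SA replicate 1) of them held any cover. Windows centred on the start sites of other active genes were not compared. The TAZ4SA-labelled pair stood apart from the other labels, which overlapped. The pair's mean was 2.85 times the median of the other 12 libraries, and 3.05 times for the length covered over the whole list, so the excess at CEBPB was of the size seen throughout these lists. Between pairs lay 84.3% of the variance (exact permutation p = 0.0576), and 45.6% when length was taken as a share of the list (exact permutation p = 0.512).

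**Figure D4:**
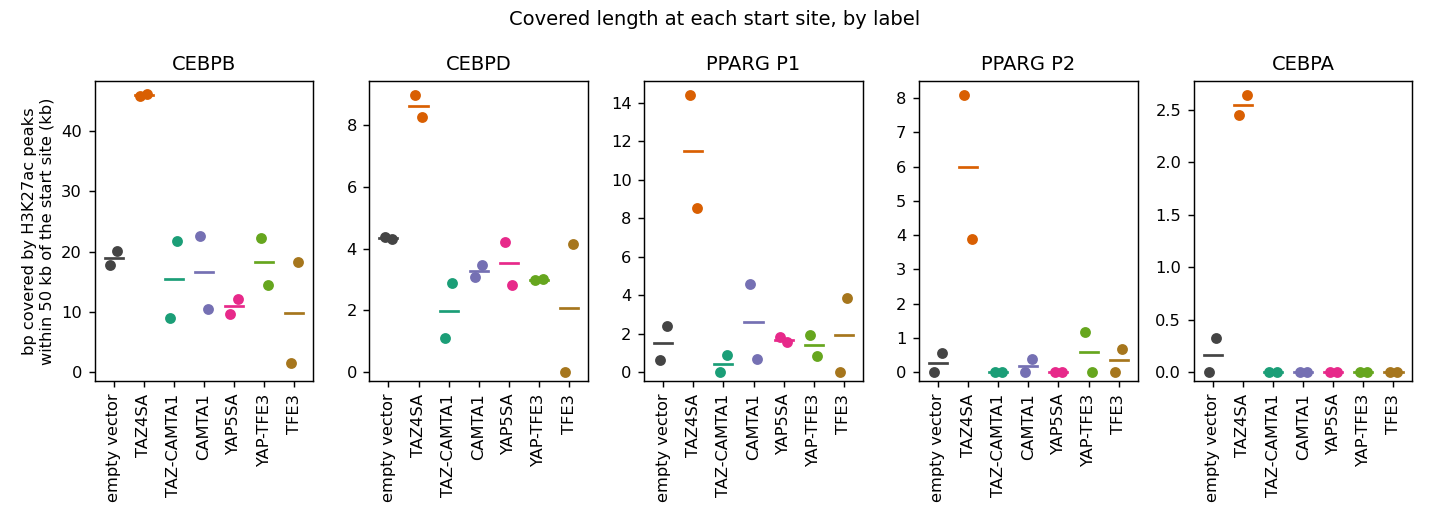
Length covered by H3K27ac peaks within 50 kb of 5 start sites (y axis, kb, with a scale of its own in each panel) by label. Points are the 2 libraries of a label and lines are their means. The TAZ4SA-labelled libraries lie highest in all 5 panels.

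CEBPD, the other early C/EBP factor, had a promoter peak in 13 lists and few peaks beside it. The best peak ranked 6928 and 3550 in empty vector, 4355 and 4489 in TAZ4SA, 15863 and 8804 in TAZ-CAMTA1, and 5060 and 3836 in CAMTA1. It ranked 9549 and 10078 in YAP5SA, 15704 and 11672 in YAP-TFE3 and 4890 in TFE3 replicate 2, while TFE3 replicate 1 had none. The peak was furthest down the lists labelled TAZ-CAMTA1, YAP5SA and YAP-TFE3, at 8804 or beyond in every library, and stood at 6928 or better in the other 7 lists that have it.

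As a share of the list, the CEBPD peak stood at 4.27% to 72.9%, with a median of 16.2%, and was thus further down its lists than the CEBPB peak was. The highest share was that of TAZ-CAMTA1 replicate 1. Its width was 686 to 6347 bp with a median of 3071 bp. The summit lay at −655 to −530 bp of the start site in 11 lists, at −160 bp in YAP5SA replicate 2 and 616 bp downstream in TAZ-CAMTA1 replicate 1. In lists cut to their 5721 best peaks, 6 still had it, namely empty vector replicate 2 and both libraries of TAZ4SA and CAMTA1 and TFE3 replicate 2.

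Over the 13 lists, a comparison added after the data had been seen, 85.6% of the variance of log10 rank at CEBPD lay between the pairs (exact permutation p = 0.0308), and 83.9% of that of uncentred log2 fold (exact permutation p = 0.0298). For centred log2 fold it was 81.3% (exact permutation p = 0.0553), and for rank without both TAZ4SA-labelled libraries 82.9% (exact permutation p = 0.0610). For rank as a percent of the list it was 62.5% (exact permutation p = 0.278). The library left without a partner, TFE3 replicate 2, entered the total only. The tests leave out TFE3 replicate 1, which has no peak where its partner has one, and p was under 0.05 in the 2 tests that neither allow for differences between lists nor leave out the TAZ4SA-labelled pair.

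Fold enrichment at CEBPD was 7.58 and 14.04 in empty vector, 25.1 and 19.3 in TAZ4SA, 3.46 and 8.19 in TAZ-CAMTA1, and 10.6 and 9.68 in CAMTA1. It was 5.06 and 5.34 in YAP5SA, 5.80 and 6.42 in YAP-TFE3 and 11.1 in TFE3 replicate 2. The promoter region (chr8:48645623-48652033) was tested among the 10449 regions with a peak in the 13 lists other than the shortest, fitted without that library. In that fit 882 regions (8.44%) differed between labels, and CEBPD had an unadjusted limma p of 0.0156 and an adjusted p of 0.104, which misses the threshold. TAZ-CAMTA1 minus empty vector was −0.69 on the log2 scale (95% interval −1.35 to −0.02, limma adjusted p = 0.482), and YAP-TFE3 minus empty vector was −0.67 (−1.34 to −0.0043, limma adjusted p = 0.396). TAZ-CAMTA1 minus TAZ4SA was −0.81 (−1.48 to −0.14, limma adjusted p = 0.145), and YAP-TFE3 minus YAP5SA was −0.06 (−0.73 to 0.61, limma adjusted p = 0.938). The first 3 had intervals below 0 before adjustment and none passed after it. With the construct in the peak names, an alternative added after the data had been seen, all 4 were above 0, at 0.12, 0.00095, 0.93 and 0.79 in the same order (lowest limma adjusted p = 0.196), so the sign of each rests on the naming.

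Peaks covered 8.97 and 8.25 kb around CEBPD in TAZ4SA, 4.38 and 4.30 kb in empty vector, 1.11 and 2.88 kb in TAZ-CAMTA1, and 3.07 and 3.47 kb in CAMTA1. They covered 4.22 and 2.81 kb in YAP5SA, 2.98 and 3.01 kb in YAP-TFE3, and 0 and 4.13 kb in TFE3. Between pairs lay 84.3% of the variance (exact permutation p = 0.0394), which became 41.8% (exact permutation p = 0.512) without both TAZ4SA-labelled libraries and 47.9% (exact permutation p = 0.481) as a share of the list. The excess of TAZ4SA over the median of the other 12 was 2.83 times, near the 3.05 times of the whole lists. The CEBPD start site had 1 region in 7 lists or more, the promoter region from −1.3 to 5.1 kb, and 9 others that were seen in TAZ4SA-labelled lists only, as were 50% of all merged regions. Its neighbours in the reference order are SPIDR on one side and PRKDC and MCM4 on the other.

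PPARG P1 had a promoter peak in 11 lists, weaker than those of CEBPB and CEBPD in the same list. It ranked 14925 and 12058 in empty vector, 10950 and 13313 in TAZ4SA, 10566 and 18704 in CAMTA1, and 15544 and 14723 in YAP5SA. It ranked 27214 in TAZ-CAMTA1 replicate 2, 23334 in YAP-TFE3 replicate 1 and 14902 in TFE3 replicate 2. The other library of each of these 3 labels had none. Ranks of the labels overlapped except for the single values of TAZ-CAMTA1 and YAP-TFE3, which were the highest.

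As a share of the list the P1 peak stood at 10.7% to 59.8%, with a median of 34.8%, and no list cut to its 5721 best peaks kept it. Fold enrichment was 14.8 and 11.1 in TAZ4SA and 4.45 to 7.54 in the other 9 lists, and TAZ4SA again stood above them. Width was 3278 and 3515 bp in TAZ4SA and at most 2739 bp in the others. The region spanned −2.0 to 2.3 kb of P1 (chr3:12327312-12331661), and being absent from 3 lists it was not tested by limma. On both sides lay regions seen in 6 lists each, at −9.1 to −6.2 kb and at 4.8 to 7.2 kb.

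Peaks covered 14.4 and 8.56 kb around P1 in TAZ4SA, 0.621 and 2.38 kb in empty vector, 4.58 and 0.674 kb in CAMTA1, and 1.81 and 1.56 kb in YAP5SA. They covered 0 and 0.880 kb in TAZ-CAMTA1, 1.96 and 0.864 kb in YAP-TFE3, and 0 and 3.86 kb in TFE3. The mean of TAZ4SA was 9.42 times the median of the other 12, and 3.15 times when length was taken as a share of the list, where 57.2% of the variance lay between pairs (exact permutation p = 0.295). In kb, 83.2% of the variance lay between pairs (exact permutation p = 0.0689), and 22.5% (exact permutation p = 0.896) without the TAZ4SA-labelled libraries, where the other labels overlapped.

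PPARG P2, the promoter of the form largely limited to fat, had no summit within 2 kb in any of the 14 lists. With 5 kb in place of 2 kb, 1 list had one, TAZ4SA replicate 1, at rank 87737 of 102009. The nearest region with a peak in at least 7 lists lay at 49.01 to 57.6 kb (chr3:12441979-12450617), had a peak in 11 lists and was absent from empty vector replicate 1, TAZ-CAMTA1 replicate 1 and TFE3 replicate 1. It straddles the 50 kb limit, and in 4 lists a summit lay inside. Its best rank ran from 11654 to 20616, with fold enrichments of 3.85 to 13.5. Covered length around P2 was 8.09 and 3.90 kb in TAZ4SA and at most 1.19 kb elsewhere, and 0 in 8 lists. The pair test gave 85.2% (exact permutation p = 0.0769), the p reached where 1 pair alone carries the difference. Without both TAZ4SA-labelled libraries the share fell to 30.5%, and with only peaks of −log10 q 5 or more to 44.2%. Which gene the region at 49.01 to 57.6 kb acts on was not tested.

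CEBPA had a promoter peak only in the 2 lists labelled TAZ4SA, whose peak names carry empty vector. The summits lay at −526 and −641 bp of the start site, at rank 19823 of 102009 and 42864 of 98992, with fold enrichments of 7.87 and 4.38 and widths of 925 and 654 bp. In the other 12 lists there was none. At a −log10 q of at least 5 the peak was in 1 list, and in lists cut to 5721 peaks in none. Outside these lists, empty vector replicate 2 had 1 peak 20.2 kb downstream of the start site, at rank 47151 of 49855. Covered length was 2.45 and 2.64 kb in TAZ4SA, 0.326 kb in empty vector replicate 2 and 0 in 11 lists. As at P2, 1 pair alone carried the difference, which fixes the p of the pair test (99.4% of the variance between pairs, exact permutation p = 0.0769). SLC7A10 and CEBPG are the nearest protein-coding genes by order.

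FABP4, the fatty acid carrier of mature fat cells, had no summit within 50 kb in any list. Of 30339 windows of 100 kb that tile the chromosomes, 46.3% held no summit in any of the 14 lists either. These windows are not centred on gene starts, and the share of empty windows around gene starts was not computed. The nearest summit lay 118 to 203 kb from the start site in 13 lists and 564 kb away in TFE3 replicate 1, with a median of 202 kb over the 14 lists. Covered length was 0 throughout and no test was possible. Of the genes held to mark the adipocyte itself, PPARG had a promoter peak at P1 in 11 lists. At P2, the promoter of the form largely limited to fat, it had none. CEBPA had a promoter peak in the TAZ4SA-labelled lists only and FABP4 in no list. H3K27ac at a gene is not its expression, which was not analysed here.

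The patterns of the promoters were compared by Pearson's r of log2 fold over the lists that share both peaks, as a description, with each list centred on its median over the 4062 shared regions. For P1 and CEBPD r was 0.65 over 11 lists and 0.63 over the 9 without the TAZ4SA label. For P1 and CEBPB it was 0.06 over 11 lists and −0.16 over the 9, and for CEBPB and CEBPD −0.07 over 13 and −0.32 over the 11 without the TAZ4SA label. The difference between these values was not tested. The order of the pairs was the same, and all 3 values were higher, when each list was centred on the median of all its peaks, at 0.91, 0.85 and 0.71, a centring that leaves the high fold enrichment of the TAZ4SA-labelled lists at shared regions in place. Lists of a label share a construct and each list has a depth of its own, so the points are not independent.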

How the data were processed

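H3K27ac peaks of 14 libraries were analysed, 2 for each of 7 labels, and groups were taken from the labels. The authors removed multi-mapping reads and regions of high input signal, aligned to GRCh37 with BWA and called peaks with MACS2. Their methods describe pooled replicates and a q limit of 0.1, whereas these lists are separate per library and their lowest −log10 q was 1.30. Each deposited list gives, per peak, the fold enrichment over background (a ratio), −log10 p and −log10 q, and an integer score, which was not used.

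Ranks were by −log10 p within a list. Peaks overlapping by at least 1 bp were merged, and the strongest peak of a list stood for it in a region. Regions with a peak in all 14 lists were tested on log2 fold by limma 3.58.1 (R 4.3.3), with Benjamini-Hochberg adjustment, a threshold of 0.05 and lists centred on their median. Single values were tested over all pairings of libraries by an exact one-sided permutation test. No pair of labels was tested on a single value, because with 2 libraries each the exact two-sided p cannot fall below 0.333. The difference between 2 such pairs was tested over 36 arrangements. Lists cut to 5721 peaks, a −log10 q of at least 5, peaks within 1000 bp stitched, other windows and scales, grouping by the construct in the peak names, blocking on replicate number and leaving out each library were alternatives. Named regions are those within 50 kb of a start site with a peak in at least 7 lists. The genes, lists and tests were chosen with earlier results of these data known. Other adipocyte genes were not analysed here, since no annotation of GRCh37 was used. Simulated data served to test the code, which ran in Python 3.11.15 with numpy 2.4.6 and pandas 2.3.3.

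Equal replicate numbers did not pair the libraries. Deviations from the label means had a median correlation of 0.0122 over 21 pairs of labels, and 1 exceeded 0.1.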

Additional observations from a re-analysis of the deposited data

Results flagged for a closer look

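At CEBPB, the length covered by peaks within 50 kb moved in opposite directions in the pairs of labels that hold a fusion and the activated form of its N-terminal partner. TAZ-CAMTA1 minus TAZ4SA was −30.5 kb, with 8.997 and 21.8 kb against 45.8 and 46.1 kb, so both TAZ-CAMTA1 libraries were below both TAZ4SA libraries. YAP-TFE3 minus YAP5SA was 7.44 kb, with 22.3 and 14.4 kb against 9.64 and 12.2 kb, so both YAP-TFE3 libraries were above both YAP5SA libraries. The difference between these differences was −38.0 kb (exact two-sided permutation p = 0.0556 over 36 arrangements within the pairs, the smallest p that this design can give), and it therefore cannot pass 0.05. Covered length at CEBPB was flagged because the libraries of both pairs lay fully apart in opposite directions. That pattern always gives this smallest p, so the p adds no support to it. The lists of these 8 libraries differ in length in the same directions, since TAZ4SA has the longest lists and YAP5SA lists of 31086 and 30236 peaks against 57505 and 39653 for YAP-TFE3. As a share of all bp covered in the list, the CEBPB values were 0.0374% and 0.0294% in TAZ-CAMTA1 against 0.0262% and 0.0323% in TAZ4SA, and 0.0274% and 0.0280% in YAP-TFE3 against 0.0224% and 0.0320% in YAP5SA. On that scale both pairs of labels overlapped. Going by the peak names, these differences are TAZ4SA minus empty vector and YAP5SA minus TFE3. At the other start sites the libraries did not all move apart in this way.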

How the results depend on the processing

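Regions that differed between labels numbered 143 with quantile normalization, 692 without centring, 422 for log2 rank, 86 at a −log10 q of at least 5, 41 in summit windows and 882 in 13 lists under either naming, and 88 (without TAZ4SA replicate 1) to 324 with a library left out (130 without TAZ4SA replicate 2, 153 without YAP5SA replicate 1, 116 without YAP-TFE3 replicate 1), each against 243. TAZ-CAMTA1 against empty vector gave 7 with the construct in the peak names, 2 for log2 rank, 1 in 13 lists, 39 in 13 lists with the peak names, and 0 to 2 with a library left out. YAP-TFE3 against empty vector gave 38, 20 and 17 under the first 3 of these. TAZ-CAMTA1 against TAZ4SA gave 63 (quantile), 2129 (no centring), 16 (peak names), 254 (log2 rank), 43 (q), 685 (13 lists), 54 (13 lists, peak names) and 18 (summit windows), and 3 (without TAZ-CAMTA1 replicate 1) to 157 with a library left out (5 and 54 without TAZ4SA replicates 1 and 2). YAP-TFE3 against YAP5SA gave 92, 0, 7, 329, 60, 755, 41 and 31 in that order, and 4 (without YAP5SA replicate 1) to 215 (9 and 75 without YAP-TFE3 replicates 1 and 2). A label left with 1 library was assumed to vary like the others.

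At the CEBPB promoter, TAZ-CAMTA1 minus empty vector turned to −0.74 with the peak names and −0.75 with these in 13 lists. YAP-TFE3 minus YAP5SA turned to 0.014 (quantile), 0.16 (no centring), 0.068 (peak names), 0.24 (log2 rank, with the sign turned so that a stronger peak is positive), 0.039 (q) and 0.089 (13 lists, peak names). At the CEBPD promoter the 4 differences turned to 0.12, 0.00095, 0.93 and 0.79 with the peak names. At CEBPB, TAZ-CAMTA1 minus empty vector ran from 0.16 to 0.92 with a library left out, and the 3 differences that turned ran from −0.52 to 0.27 (YAP-TFE3 and empty vector), −0.36 to 0.27 (TAZ-CAMTA1 and TAZ4SA) and −0.41 to 0.38 (YAP-TFE3 and YAP5SA). None passed the threshold. TAZ-CAMTA1 minus TAZ4SA was −1.38 without centring (limma adjusted p = 0.0415).

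Covered length at CEBPD had 71.5% of its variance between pairs at a −log10 q of at least 5, 71.0% in lists cut to equal length, 86.2% with stitched peaks, 47.9% as a share of the list, 41.8% without both TAZ4SA libraries and 85.7% with the replicate block, each with an exact permutation p over 0.05, and 74.8% to 96.0% with a library left out, where p was above 0.05 without either empty vector library, TAZ4SA replicate 1 or TAZ-CAMTA1 replicate 1. The replicate block changed no other call where it was run, and it was not run for the CEBPD promoter over 13 lists. At CEBPB the stitched share was 86.5% (exact permutation p = 0.0466), with 75.4% to 91.0% when a library was left out, and p was under 0.05 without either TAZ-CAMTA1 library, CAMTA1 replicate 2 or TFE3 replicate 2. The CEBPB rank gave 82.5% as log2 fold and 71.2% to 87.6% with a library left out, with p under 0.05 without empty vector replicate 2 or either YAP-TFE3 library. CEBPA reached 97.4% within 100 kb (exact permutation p = 0.0387). With a library left out it gave 99.0% to 99.8%, with p under 0.05 only without empty vector replicate 1. That left empty vector replicate 2, the only library outside TAZ4SA with cover there, without a partner, and such a library enters the total only. PPARG P1 gave 73.8% to 89.9% with a library left out, with p under 0.05 only without CAMTA1 replicate 2. CEBPD rank over 13 lists gave 62.5% as a percent of the list, 81.3% as centred log2 fold and 82.9% without both TAZ4SA libraries, each with an exact permutation p over 0.05. Promoter peaks in lists cut to equal length numbered 0 at PPARG P1, 0 at CEBPA and 6 at CEBPD. CEBPA had 1 at a −log10 q of at least 5, PPARG P2 1 within 5 kb and CEBPB 4 within 1 kb. In lists cut to equal length, covered length at PPARG and CEBPA was 0 in every list and the CEBPB rank within 1 kb lacked values, so neither gave a test. The causes of these changes were not tested, and read depth, which was not used here, limits what the absence of a peak can show.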
